A study of Gallus gallus with 32 samples.

Results

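The genes described here encode the proteasome, the large protease that degrades ubiquitin-tagged proteins in the cytosol and nucleus, and its assembly factors, activators and inhibitor. They were chosen by name alone: every gene whose symbol begins with PSMA, PSMB, PSMC, PSMD, PSME, PSMF or PSMG followed by a number. The rule found 40 genes among the 25619 of the deposited table. All 40 averaged 1 TPM or more and so passed the filter on low values, as did 11339 genes in all. TPM, a transcript abundance unit, is a share of a library's transcripts corrected for transcript length. No measured level entered the naming rule, but the rule was chosen with earlier results of these data known.

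The proteasome has a barrel-shaped core, the 20S particle, in which rings of alpha subunits gate the entrance and rings of beta subunits hold the protease sites. A regulatory cap, the 19S particle, receives ubiquitin-tagged proteins, and its ring of ATPases unfolds them and threads them into the core. In mammals and yeast the subunit genes are known to be regulated together, and in mammals the transcription factor NFE2L1 raises them when proteasome activity is short. By role the 40 genes comprised 7 alpha subunits, 6 beta subunits, 5 ATPases and 10 non-ATPase subunits of the cap. These 28 genes are called the structural subunits below. The other 12 were 3 chaperones of cap assembly, 4 chaperones of core assembly, 3 activators, 1 inhibitor and PSMC3IP. PSMC3IP fits the naming rule but encodes a partner of meiotic recombinases in mice, not a proteasome component. The beta subunit PSMB6, the ATPase PSMC4 and the cap subunit PSMD8 were not analysed here.

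Liver was sampled from Arbor Acres broilers, chickens bred for meat. The 4 diets held 0 (control), 1.8, 9 or 18 g/kg of added arginine, an amino acid that birds must take from their feed. Each diet had 8 libraries of poly(A)-selected RNA, 32 in all, while the design text counts 48 liver samples. The labels give no age, sex or feeding time and do not say whether separate birds gave the 8 libraries of a diet, so p-values measure a spread between libraries that may in part be technical.

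Per library the deposited values summed to 998707 to 999281 TPM, 10353 to 11678 genes reached 1 TPM, and mitochondrially encoded transcripts took 16.04 to 25.55%. Sequencing depth is unknown because TPM keep no read counts, so no counting error can be given. The hepatocyte transcript ALB had a mean of 83013 TPM, and 14 of 15 measured hepatocyte markers passed the filter. The libraries are of whole liver, so fewer cells of a type and less RNA per cell cannot be told apart.

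Transcripts of the core exceeded those of the cap, and the beta ring stood highest. The 6 beta subunits had mean levels over the 32 libraries of 94.7 to 217 TPM with a median of 144 TPM. The alpha ring followed with 55.7 to 143 TPM and a median of 99.0 TPM, and then the ATPases with 53.9 to 109 TPM and a median of 86.8 TPM. The 10 non-ATPase subunits were the lowest of the structural groups, with a median of 45.0 TPM and a range of 23.0 to 95.3 TPM. The 12 other genes had a median of 22.2 TPM. PSMB7, which carries the trypsin-like site, was the most abundant of the 40 with 217 TPM, and PSMB4, a beta subunit without a protease site, came next with 212 TPM. Their ranges over libraries, 165 to 290.01 and 153 to 320 TPM, overlapped almost throughout. At the other end stood the core chaperones PSMG4, with 9.21 TPM, and PSMG1, with 9.24 TPM.

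**Figure D1:**
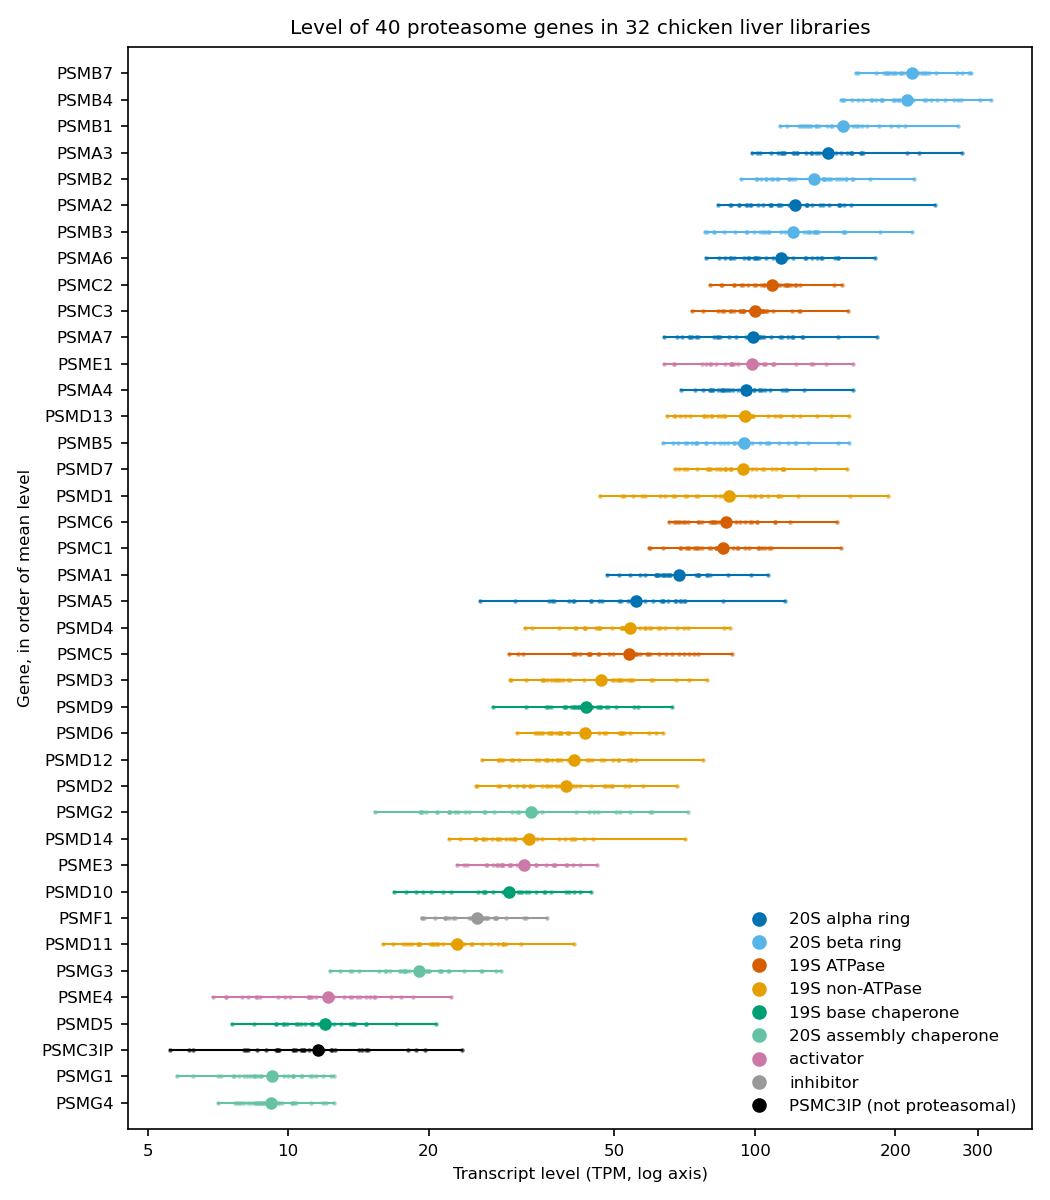
Transcript level of the 40 genes in TPM on a log axis, 1 row per gene in order of mean level and coloured by role. Small points are the 32 libraries, the line spans the lowest to the highest library and the large point is the mean. Beta subunits lead the order with PSMB7 at 217 TPM, and the assembly chaperones PSMG1 and PSMG4 close it at about 9.2 TPM.

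Within a ring or cap the subunits are used in equal numbers in the assembled particle, but their transcripts were not equally abundant. In the alpha ring PSMA3 had a mean of 143 TPM and PSMA5 of 55.7 TPM. PSMA5 also varied more between libraries than the rest of its ring, from 25.8 TPM in control replicate 4 to 116 TPM in control replicate 3, a ratio of 4.50. Among ATPases PSMC2 was highest with 109 TPM and PSMC5 lowest with 53.9 TPM. In the cap's non-ATPase set PSMD13, PSMD7 and PSMD1 had means of 95.3, 94.2 and 88.1 TPM, while PSMD11, a subunit of the cap's lid, had 23.0 TPM. PSMD1, the scaffold that docks the ubiquitin receptor ADRM1, ran from 46.5 to 193 TPM, a ratio of 4.15. PSMB7 had the narrowest range among the structural subunits, with a ratio of 1.76 between its highest and its lowest library.

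Summed over the 28 structural subunits, the level ran from 2016 to 4288 TPM, or 0.202 to 0.429% of a library's transcripts. Both extremes were control libraries, replicate 6 and replicate 3. The control libraries had a median of 2569 TPM, and the median was 2634 TPM at 1.8 g/kg, 2446 TPM at 9 g/kg and 2690 TPM at 18 g/kg. Means were 2722 ± 764 TPM (SD, n = 8) in control, 2540 ± 290.2 at 1.8 g/kg, 2509 ± 398 at 9 g/kg and 2724 ± 351 at 18 g/kg. The 4 diets overlapped, and the spread within control was wider than the distance between any pair of diet means. Control replicate 3 stood apart: it was the highest of the 32 libraries for 21 of the 28 subunits, and the other 7 control libraries had a mean of 2498 ± 461 TPM. Of the variance in the mean log2 level of the 28 subunits, 3.25% lay between diets. For single genes of the 40 this share had a median of 5.18%, against 6.22% over all tested genes.

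The core sum was 1.21 to 2.09 times the cap sum in a library. By diet this ratio was 1.74 ± 0.17 in control, 1.71 ± 0.29 at 1.8 g/kg, 1.51 ± 0.14 at 9 g/kg and 1.68 ± 0.18 at 18 g/kg (SD, n = 8 each). The lowest ratio was in replicate 1 at 9 g/kg, the library with the highest PSMD1 level, and the highest was in replicate 2 at 1.8 g/kg. Libraries at 9 g/kg ran from 1.21 to 1.73 and control libraries from 1.42 to 2.03, so the groups overlapped. Both sums hold only genes under the naming rule, so the ratio is not that of whole particles. The core sum lacks PSMB6, and the cap sum lacks PSMC4, PSMD8, the receptor ADRM1 and the small subunit SHFM1.

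**Figure D2:**
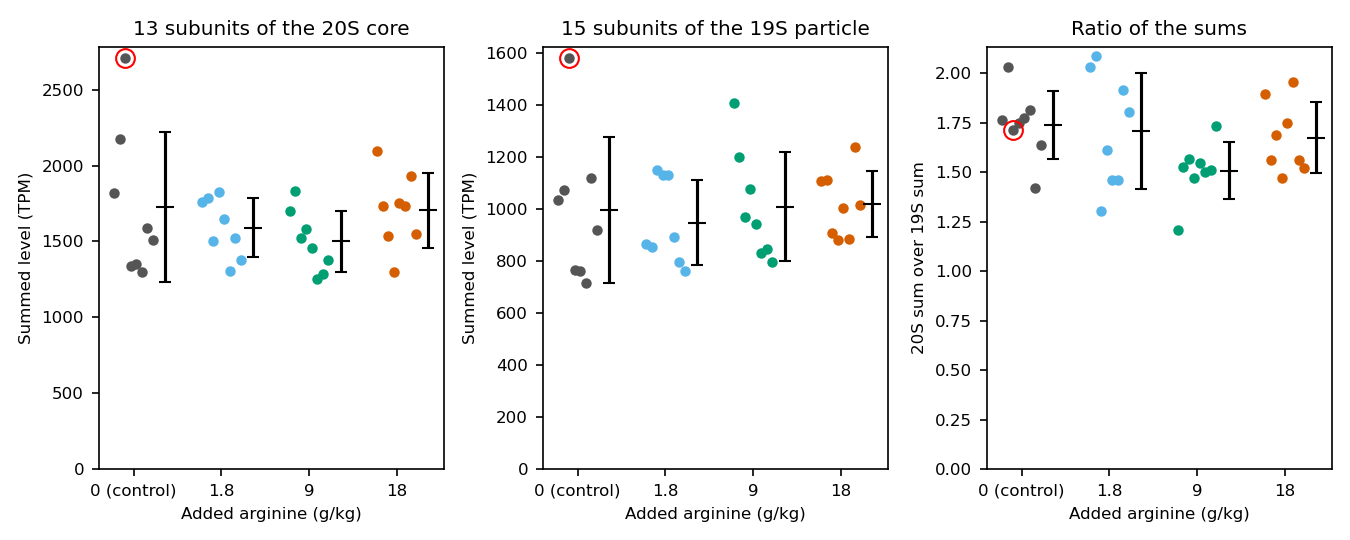
Summed level in TPM of the 13 core (20S) subunits, left, and the 15 cap (19S) subunits, middle, and the ratio of the sums, right, by added arginine in g/kg. Points are libraries, bars the mean ± SD of 8 libraries, and the red circle marks control replicate 3. The diets overlap in all panels, and control replicate 3 has the highest sum of both particles with a ratio of 1.71.

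The first question was whether any level of added arginine changed proteasome transcripts. No proteasome gene passed the test at any dose. With limma on log2(TPM + 1) and Benjamini-Hochberg adjustment over the 11339 tested genes, 0 of 40 were called at an adjusted p below 0.05 at 1.8, 9 or 18 g/kg against control, where the background was 0 genes (0%) in each comparison. The same count of 0 held for 9 against 1.8 g/kg, 18 against 1.8 g/kg, 18 against 9 g/kg, any difference among the 4 diets and a linear trend on dose. At an unadjusted p below 0.05 the count was 0 of 40 at 1.8 g/kg against a background of 2.34% of tested genes, 0 of 40 at 9 g/kg against 4.87%, and 0 of 40 at 18 g/kg against 2.44%. Between doses it was 0 for 9 against 1.8 g/kg (background 2.83%), 0 for 18 against 1.8 g/kg (2.04%) and 2 for 18 against 9 g/kg (5.69%). It was also 0 for any difference among diets (3.18%) and for the trend (2.03%). These 2 genes were PSMC3IP and PSME1, described with their values below.

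The 95% intervals show, gene by gene, how large a change could have been missed. Each holds for 1 gene alone, not for the 40 together. They also take the 8 libraries of a diet as independent, which the labels do not state. At 1.8 g/kg the 40 differences from control had a median of −0.05 on the log2 scale (all tested genes 0.03), and their 95% intervals reached from −0.58 to 0.85. At 9 g/kg the median was −0.07 (all genes 0.00) and the intervals reached from −0.63 to 0.73, and at 18 g/kg the median was 0.05 (all genes 0.02) with intervals from −0.39 to 0.85. Each of the 40 intervals at each dose thus excluded a doubling or a halving, a log2 difference of 1 or −1 on the log2(TPM + 1) scale, which understates the change of low genes. The median standard error of a difference was 0.15.

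The sign of the small median differences depended on single libraries: on control replicate 3 at 1.8 and 9 g/kg and on control replicate 6 at 18 g/kg. Of the 40 genes 11 had estimates above control at 1.8 g/kg, 15 at 9 g/kg and 29 at 18 g/kg. Without control replicate 3 the counts were 29, 23 and 38, with medians of 0.04, 0.03 and 0.15 (all tested genes 0.06, 0.03 and 0.05). At 18 g/kg, leaving out control replicate 6 gave 15 above control and a median of −0.01. At 9 g/kg the estimates of the core lay below control in 13 of 13 subunits (median −0.15, all tested genes 0.00). Those of the cap were above control in 8 of 15 (median 0.03). Without control replicate 3 the core was below in 10 of 13 (median −0.05) and the cap above in 14 of 15 (median 0.11). Without replicate 1 at 9 g/kg the core was below in 13 of 13 (median −0.19) and the cap above in 6 of 15 (median −0.03). None of these estimates passed the test, and all comparisons with control share the same 8 control libraries. The subunits also varied together between libraries, with a median Pearson r of 0.72 for pairs within the core and 0.76 within the cap. The counts of subunits are therefore not counts of independent observations.

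**Figure D3:**
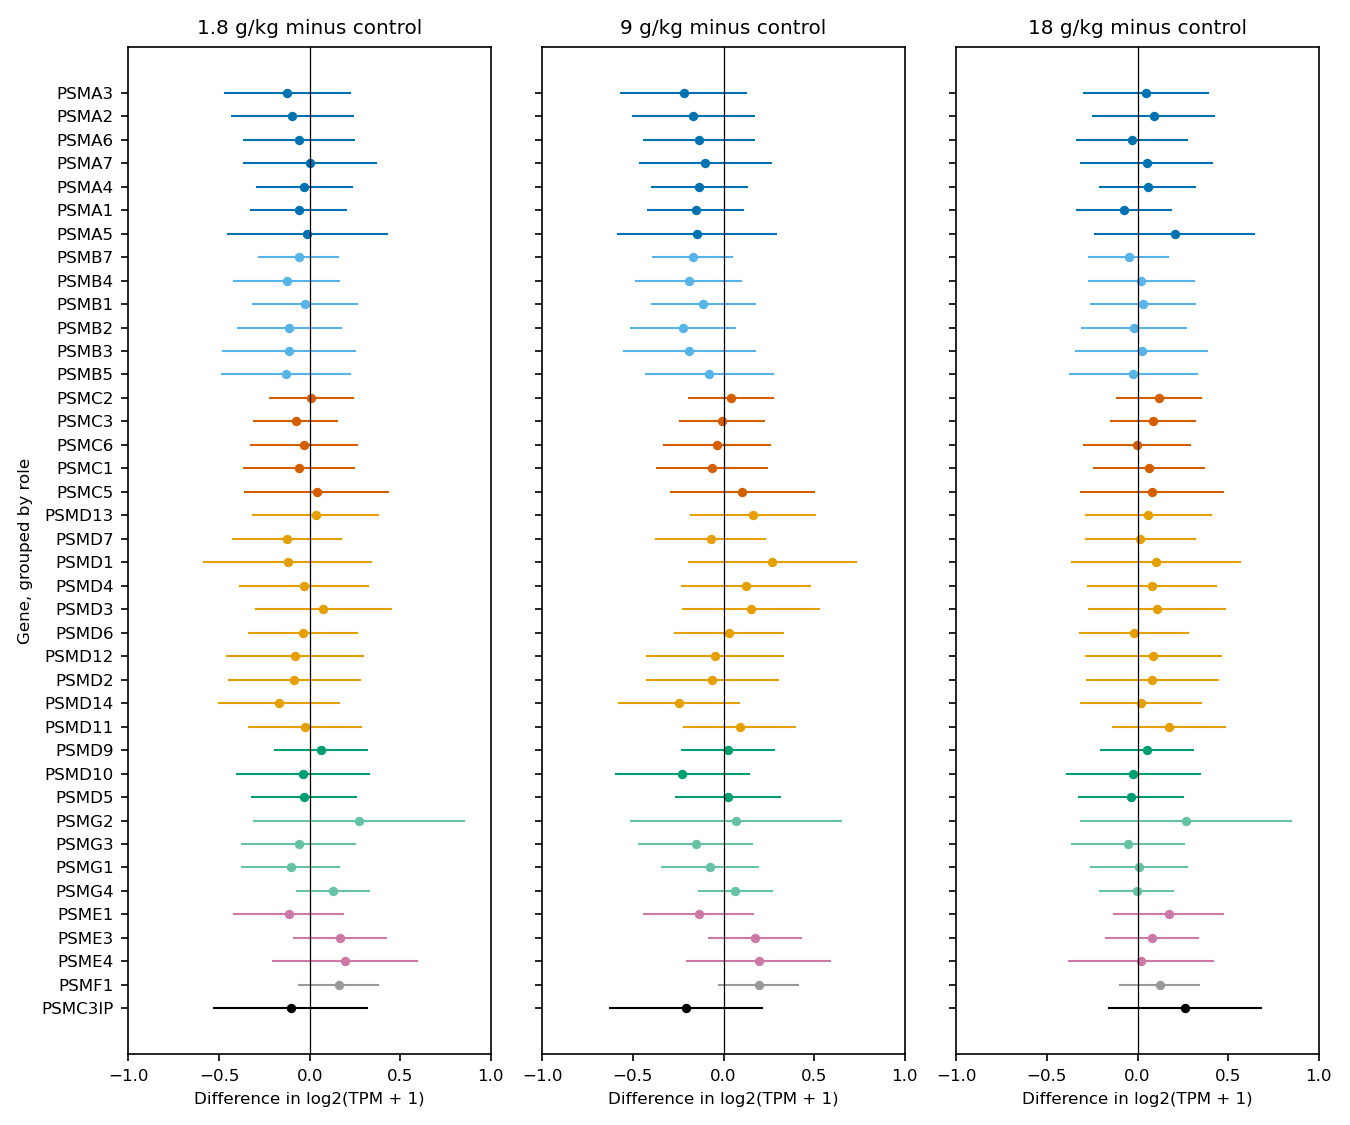
Difference of each dose from control in log2(TPM + 1) for the 40 genes, with 95% intervals from limma, coloured by role. Every interval crosses 0 and lies inside −1 to 1. At 9 g/kg the core subunits sit left of 0 and the cap subunits on both sides.

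Among the beta subunits with a protease site, PSMB7 was steady and PSMB5 varied more. PSMB7 had a lowest, median and highest level of 193, 210.3 and 290.01 TPM in control, 189, 209 and 270.4 TPM at 1.8 g/kg, 166, 207 and 223 TPM at 9 g/kg, and 165, 222 and 278 TPM at 18 g/kg. At 9 g/kg 0 of 8 libraries exceeded the control mean of 228 TPM, but the ranges overlapped. Control replicates 2 and 3, with 290.01 and 288.04 TPM, raised that mean above the control median. The log2 difference was −0.17 ± 0.11 (SE, adjusted p = 0.956, limma). It was −0.06 ± 0.11 at 1.8 g/kg and −0.05 ± 0.11 at 18 g/kg (adjusted p = 1 for both). PSMB5, which carries the chymotrypsin-like site and is the target of clinical proteasome inhibitors, ran over 68.3, 93.4 and 151 TPM in control, 71.7, 82.6 and 122 TPM at 1.8 g/kg, 66.8, 91.1 and 118 TPM at 9 g/kg and 63.6, 91.4 and 159 TPM at 18 g/kg. The highest and the lowest library were both at 18 g/kg. Its differences from control were −0.13 ± 0.17, −0.08 ± 0.17 and −0.02 ± 0.17 at the rising doses (adjusted p of 1, 0.981 and 1).

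Cap subunits that handle ubiquitin were represented by PSMD4, a ubiquitin receptor, and PSMD14, the deubiquitinase that removes the tag before degradation. PSMD4 had a lowest, median and highest level of 32.1, 53.6 and 88.5 TPM in control, 41.2, 47.9 and 62.0 TPM at 1.8 g/kg, 41.4, 52.1 and 86.0 TPM at 9 g/kg and 43.0, 55.2 and 68.2 TPM at 18 g/kg. The control range enclosed the range of every other diet. Its log2 differences were −0.03 ± 0.17, 0.12 ± 0.17 and 0.08 ± 0.17 (adjusted p of 1, 0.975 and 1, limma). PSMD14 spanned 25.2, 30.6 and 70.9 TPM in control, 23.3, 30.2 and 41.1 TPM at 1.8 g/kg, 22.1, 28.7 and 40.8 TPM at 9 g/kg and 25.2, 34.6 and 43.0 TPM at 18 g/kg. The control maximum is replicate 3, and the next control library had 45.0 TPM. The differences of PSMD14 were −0.17 ± 0.16, −0.24 ± 0.16 and 0.02 ± 0.16 (adjusted p of 1, 0.958 and 1). At 9 g/kg 1 of 8 libraries exceeded the control mean, which replicate 3 raised.

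Activators replace or join the cap at the ends of the core. PSME1, a subunit of the activator that interferon induces in mammals, was the most abundant of them with a mean of 98.4 TPM. Its lowest, median and highest levels were 82.7, 93.5 and 132 TPM in control, 67.0, 85.4 and 162 TPM at 1.8 g/kg, 63.7, 87.5 and 133 TPM at 9 g/kg, and 97.7, 107 and 142 TPM at 18 g/kg. At 18 g/kg 7 of 8 libraries exceeded the control mean, and the range still overlapped with the range of each other diet. The log2 difference of 18 from 9 g/kg was 0.31 ± 0.15 (95% interval 0.01 to 0.61, unadjusted p = 0.043, adjusted p = 0.855, limma), and the difference of 18 g/kg from control was 0.17 ± 0.15 (adjusted p = 1). At 1.8 and 9 g/kg the differences from control were −0.12 ± 0.15 and −0.14 ± 0.15.

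PSME3, the subunit of a nuclear activator that acts without ubiquitin, had a lowest, median and highest level of 23.0, 28.0 and 45.9 TPM in control, 28.0, 31.7 and 40.8 TPM at 1.8 g/kg, 26.5, 33.2 and 42.3 TPM at 9 g/kg and 23.8, 30.9 and 36.9 TPM at 18 g/kg. The control maximum, in replicate 3, lay above every library of the other diets. Its differences were 0.17 ± 0.12, 0.17 ± 0.12 and 0.08 ± 0.12 (adjusted p of 1, 0.963 and 1, limma). PSME4, a large nuclear activator that in mammals serves histone degradation, was low, with a mean of 12.2 TPM. It spanned 7.98 to 14.0 TPM in control, 7.36 to 22.3 at 1.8 g/kg, 6.91 to 17.5 at 9 g/kg and 7.36 to 15.0 at 18 g/kg, with medians of 10.8, 12.99, 13.2 and 11.6 TPM. These ranges overlapped over most of their width.

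PSMF1, first described as an inhibitor of the core, had the smallest unadjusted p of the 40 genes at 1.8 and at 9 g/kg. Its lowest, median and highest levels were 19.4, 23.3 and 25.8 TPM in control, 19.5, 26.6 and 29.3 TPM at 1.8 g/kg, 19.4, 26.2 and 35.8 TPM at 9 g/kg and 20.6, 25.4 and 31.99 TPM at 18 g/kg. The minima lay within 19.4 to 20.6 TPM, while the maxima of the 3 supplemented diets lay above the control maximum. The log2 differences were 0.16 ± 0.11 (unadjusted p = 0.148, adjusted p = 1), 0.19 ± 0.11 (unadjusted p = 0.083, adjusted p = 0.956) and 0.12 ± 0.11 (adjusted p = 1) by limma, and 7, 6 and 5 of 8 libraries exceeded the control mean. PSMC3IP, the gene that shares only the name, had a median of 11.8 TPM in control, 9.01 at 1.8 g/kg, 10.6 at 9 g/kg and 11.3 at 18 g/kg, and its highest library, at 18 g/kg, had 23.6 TPM. Its difference of 18 from 9 g/kg was 0.47 ± 0.21 (95% interval 0.05 to 0.88, unadjusted p = 0.031, adjusted p = 0.846), and from control it differed by −0.11 ± 0.21, −0.21 ± 0.21 and 0.26 ± 0.21.

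The 4 core chaperones had a median level of 14.2 TPM and the 3 cap chaperones one of 29.8 TPM. They included the smallest and the largest within-diet SD of log2(TPM + 1) among the 40 genes, on a scale that understates the spread of low genes. The ratio of highest to lowest library was 1.77 for PSMG4, against 1.76 for PSMB7, and 4.70 for PSMG2. PSMG4, which with PSMG3 helps to build the alpha ring, had a within-diet SD of 0.18 on the log2 scale. Its levels spanned 7.70 to 12.1 TPM in control, 8.77 to 11.9 at 1.8 g/kg, 7.78 to 12.5 at 9 g/kg and 7.08 to 10.4 at 18 g/kg. PSMG2, which pairs with PSMG1 in the same process, had a within-diet SD of 0.60. It ran from 19.3 to 45.1 TPM in control, 20.8 to 71.96 at 1.8 g/kg, 15.3 to 60.2 at 9 g/kg and 22.1 to 51.4 at 18 g/kg, with medians of 25.4, 29.2, 25.1 and 32.7 TPM. Its partner PSMG1 ran from 5.79 to 12.5 TPM over all libraries. The cap chaperones PSMD9, PSMD10 and PSMD5, which hold pairs of ATPases during assembly in mammals, had means of 43.4, 29.8 and 11.97 TPM.

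The subunits varied together between libraries of the same diet. For each gene the diet means were subtracted and the rest was correlated over the 32 libraries with the mean log2 level of the structural subunits, itself left out. All correlations are descriptions over libraries that share a preparation and a scaling, and carry no test. The 28 subunits had a median Pearson r of 0.84, where the 11299 other tested genes had a median of 0.22 and a 95th percentile of 0.69. Of the 28, 23 lay above that percentile. Control replicate 3 and replicate 1 at 9 g/kg were farthest from the median in mean subunit log2 level, before diet means were subtracted. Left out together, they gave a median r of 0.79, with 22 of 28 above the percentile of the remaining libraries. Control replicate 6 lay almost as far below (5.96, median 6.31, replicate 1 at 9 g/kg 6.66) and was kept. With 1 library left out at a time the median r ran from 0.79 to 0.85. Rescaling libraries by median ratios gave 0.81 and 23 of 28.

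PSMB2 and PSMD2 followed the rest most closely, with r = 0.94 each, then PSMD4 with 0.92 and PSMC1 with 0.91. All 5 ATPases lay between 0.84 and 0.91. The 5 subunits that did not exceed the percentile were PSMD1 (0.51), PSMB5 (0.54), PSMB4 (0.65), PSMB7 (0.66) and PSMA2 (0.67). This set changed with the scaling. After median-ratio rescaling, where the percentile was 0.61, PSMB5 (0.72), PSMB4 (0.70) and PSMB7 (0.61) exceeded it, PSMB7 by less than 0.01, and the 5 that did not were PSMD1, PSMA2, PSMD6, PSMD12 and PSMD14. PSMB5 ranged from −0.13 at 1.8 g/kg to 0.78 in control when each diet was taken alone. PSMD4 held within each diet, from 0.85 at 18 g/kg to 0.95 at 9 g/kg.

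Of the 12 other genes 1, PSME3, exceeded the percentile, with r = 0.86 (0.77 without both farthest libraries). PSMF1 joined it without those libraries (0.68, percentile 0.64) and after rescaling (0.66, percentile 0.61). The r of PSME3 within diets ran from 0.48 at 18 g/kg to 0.97 at 9 g/kg. PSMG1 and PSMF1 came next with 0.69 and 0.68. The cap chaperones PSMD10, PSMD5 and PSMD9 had 0.64, 0.58 and 0.37, below every ATPase. The core chaperones PSMG4 and PSMG2 had 0.18 and 0.13, and the activators PSME4 and PSME1 had 0.31 and 0.23, all near the median of other genes. PSMC3IP had 0.30.

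**Figure D4:**
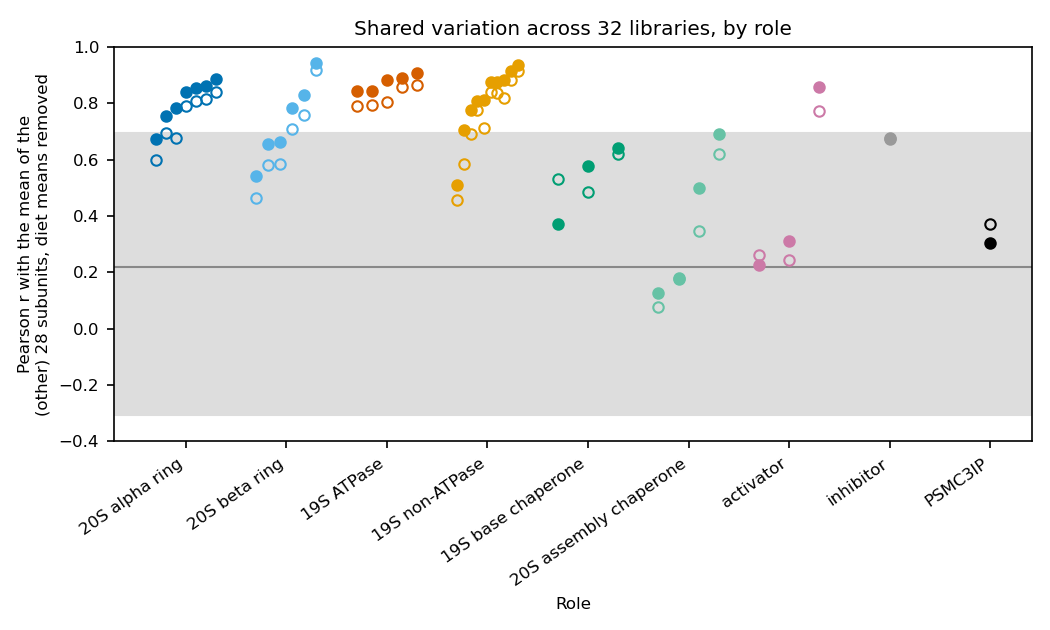
Pearson r of each gene with the mean log2 level of the (other) 28 structural subunits over libraries, after subtracting diet means, grouped by role. Filled points use 32 libraries, open points leave out control replicate 3 and replicate 1 at 9 g/kg, and the grey band and line give the 5th to 95th percentile and the median of 11299 other genes. Structural subunits lie mostly above the band, and chaperones and activators other than PSME3 inside it.

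Taken pair by pair, the 378 pairs of structural subunits had a median r of 0.69, from −0.03 for PSMA2 with PSMB5 to 0.95 for PSMD2 with PSMD4. Pairs within the cap had a median of 0.76 (105 pairs), pairs within the core 0.72 (78 pairs) and pairs across the particles 0.64 (195 pairs). PSMD2 is the cap's scaffold for ubiquitin receptors and shuttle factors. The mean levels of core and cap had r = 0.82 and Spearman rho = 0.79 over the 32 libraries, and r = 0.74 without control replicate 3 and replicate 1 at 9 g/kg. Within diets r was 0.93 in control, 0.45 at 1.8 g/kg, 0.91 at 9 g/kg and 0.73 at 18 g/kg, each over 8 libraries. Pairs of the 12 other genes had a median of 0.32, and among them PSMD5 with PSME4 was highest with 0.69.

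**Figure D5:**
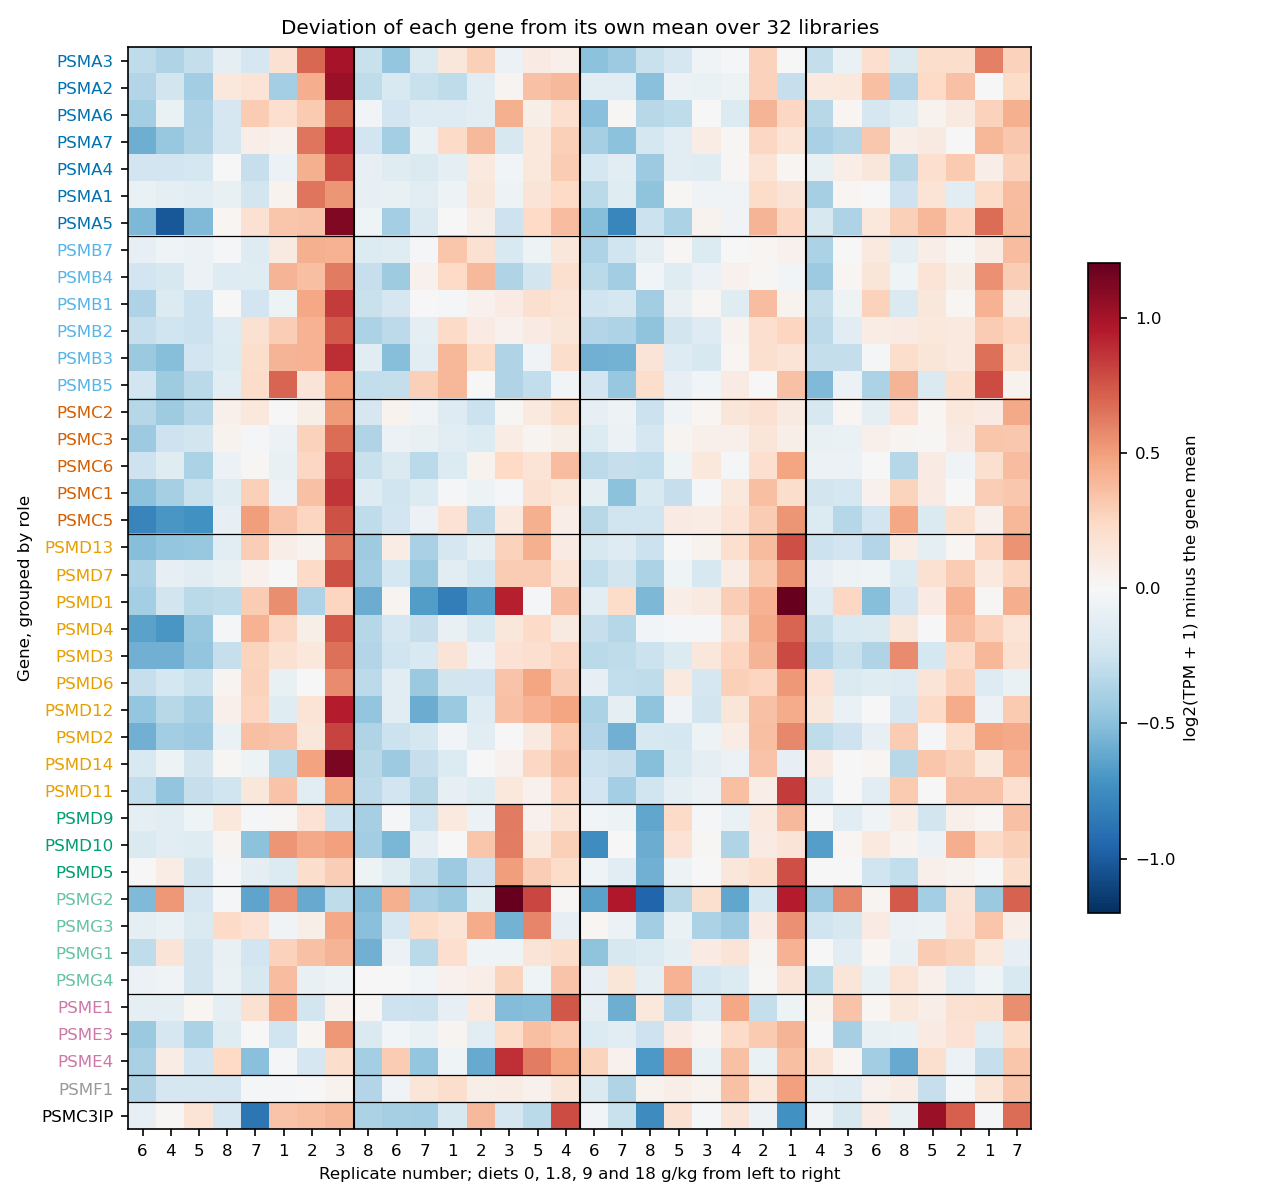
Deviation of each gene from its own mean over 32 libraries in log2(TPM + 1), red above and blue below, with genes grouped by role and libraries ordered within a diet by the mean level of the structural subunits. Control replicate 3 is red through most of the structural subunits, and replicate 1 at 9 g/kg is red in the cap and paler in the core. PSMG2, PSME1 and PSMC3IP follow another order.

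Single libraries differed in which particle was high. Control replicate 3 had 2708 TPM of core and 1581 TPM of cap transcripts, the highest of both. At 9 g/kg, replicate 1 had 1407 TPM of cap transcripts, the next highest, but 1702 TPM of core transcripts, and it was the highest library for 4 cap subunits, PSMD1, PSMD3, PSMD11 and PSMD13. Replicate 3 at 1.8 g/kg was the highest library for PSMD9, PSMD10, PSME4 and PSMG2 and for none of the 28 structural subunits. The W-linked transcript HINTW was at 0 in 20 libraries and above 0 in 12. The W is the female sex chromosome of birds, so both sexes may be present, and the split over diets is not given here. Across libraries the mean of the structural subunits had r = −0.125 with the log2 level of HINTW. The same mean had r = −0.04 with the mitochondrial share and r = 0.26 with the number of genes at 1 TPM or more. It had r = 0.52 with the median-ratio size factor, whose part in the shared variation was measured only by the rescaling above.

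The 10 genes outside the rule with levels most like the mean of the structural subunits were NMT1 (r = 0.92), RAN (0.91), RTCB (0.91), FARSB (0.91), CCT2 (0.90), USP14 (0.90), PTGES3 (0.89), MSTO1 (0.89), MRPL40 (0.88) and CCT5 (0.88), over 32 libraries after subtracting diet means. NMT1 attaches myristate to proteins, RAN drives nuclear transport, RTCB ligates transfer RNA, and CCT2 and CCT5 are subunits of the cytosolic chaperonin. USP14 is a deubiquitinase that binds the cap. After median-ratio rescaling 3 of these 10 were again among the 10 most alike, and their r then ran from 0.78 for USP14 to 0.91 for NMT1.

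Partners of the proteasome were listed separately, and 22 of them were measured and tested. None was called at any dose, and 0 had an unadjusted p below 0.05 (limma). The background was 2.34, 4.87 and 2.44% of tested genes at 1.8, 9 and 18 g/kg. The median differences of the partners from control were 0.01, 0.00 and 0.03. Their mean had r = 0.77 with that of the structural subunits (0.68 after rescaling). The core maturation factor POMP, at 106 TPM, had 0.82, and the small cap subunit SHFM1, also called SEM1, had 0.76. The cap's receptor ADRM1 and the deubiquitinase UCHL5 that it binds had 0.68 and 0.58, and 0.50 and 0.28 after rescaling. NFE2L1, the regulator named above, had 0.23 with a range of 18.7 to 37.4 TPM, and its protease DDI2 had 0.64. The shuttle factor RAD23B had −0.15, and −0.68 after rescaling.

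Ubiquitin genes and the segregase that extracts ubiquitin-tagged proteins gave 20 tested genes, with 0 called at each dose. At an unadjusted p below 0.05, 0 were higher at any dose and 1 was lower, the polyubiquitin gene UBB at 9 g/kg (log2 difference −0.29 ± 0.13, adjusted p = 0.952, limma). At that dose the background was 4.87% of tested genes, so 1 of 20 was near it. The mean of the 20 genes had r = 0.86 with the structural subunits (0.89 after rescaling). Of the listed genes that work with the segregase VCP, NPLOC4 had 0.84 and UFD1L 0.81, while VCP itself had 0.65. FAF2 and FAF1, also in the list, had lower values of 0.56 and 0.46 (0.38 and −0.02 after rescaling). The ubiquitin precursor RPS27A, which also encodes a ribosomal protein, had 0.27. Heat shock genes (22 tested, 0 called at each dose) had r = 0.60 as a mean, and 0.45 after rescaling. This list included HSPD1 and HSPE1, which encode mitochondrial chaperonins.

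Interferon response genes (23 tested, 0 called at each dose) had r = 0.28 with the structural subunits. Their median differences from control were −0.16, −0.33 and −0.35 at the rising doses (all tested genes 0.03, 0.00 and 0.02). At an unadjusted p below 0.05 (limma) 0, 1 and 1 of the 23 were lower and 0 higher. The background was 2.34, 4.87 and 2.44% of tested genes. The summed level of the interferon list was 20069 TPM in control replicate 7 and 9681 TPM in replicate 2 at 1.8 g/kg. Group medians were 1668 to 2237 TPM. In those libraries PSME1 had 109 and 104 TPM, inside the range of the other libraries of each diet. PSME1 had r = 0.37 with the interferon list over all libraries and 0.39 without that pair. These values were not particular to PSME1. PSMA7 had 0.39 and 0.47 and PSMB7 had 0.21 and 0.50, while PSMD1 had 0.01 and −0.05.

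Cell type markers were set beside the subunits in the same way. Hepatocyte markers (14 tested) had r = −0.55 as a mean with the structural subunits, and −0.30 after rescaling. Taken singly the 14 markers had a median r of −0.19, from −0.65 for AHSG to 0.41 for the hepatocyte transcription factor HNF4A. Among secreted proteins, AHSG, APOH and ALB had −0.65, −0.60 and −0.58 (−0.63, −0.12 and −0.65 after rescaling). APOB and APOA1, also secreted, had −0.04 and 0.10 (−0.51 and 0.23 after rescaling). Markers of macrophages (12 tested) had 0.15, of T and NK cells (10) 0.26, of B and plasma cells (4) 0.26, of endothelium (14) −0.17 and of erythrocytes (7) 0.06. After rescaling these were −0.20, −0.21, −0.09, −0.41 and 0.18, so the first 3 and no others turned sign. No listed marker was at 0 in every library, and 0 markers of any list were called at any dose. At an unadjusted p below 0.05 (limma) the background was 2.34, 4.87 and 2.44% of tested genes at 1.8, 9 and 18 g/kg. Of 14 endothelial markers 3, 4 and 1 were higher at that threshold, and of 4 B and plasma cell markers 1, 2 and 0. Erythrocyte markers had 0, 1 and 0 of 7 higher. Among 10 T and NK cell markers 0, 0 and 2 were higher, and 1 was lower at each dose. No other cell type marker reached the threshold. Endothelial markers had median differences from control of 0.42, 0.40 and 0.27 at the rising doses. Macrophage markers had 0.29, 0.45 and 0.68, and T and NK cell markers 0.19, 0.30 and 0.25. B and plasma cell markers had 0.25, 0.49 and 0.19. Erythrocyte markers had 0.21, 0.40 and −0.005, and hepatocyte markers −0.07, −0.09 and −0.08. The lowest summed endothelial level was 51.2 TPM in control and 142, 154 and 161 TPM at the rising doses. Summed hepatocyte markers had group medians of 163586 TPM in control and 146357, 141110 and 133589 TPM at the rising doses. The ranges overlapped: 114134 to 197685 TPM in control, then 120511 to 168396, 117139 to 182753 and 104044 to 178000 TPM. ALB, with a mean of 83013 TPM, weighs heavily in this sum, and its log2 differences were −0.07, −0.03 and −0.23 (SE 0.18 each). The part of the cell type markers in the shared variation of the subunits was not tested.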

How the data were processed

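The authors deposited 1 table of TPM values per gene for 32 libraries, per the file headers 1 column per library. The tools named are RSEM, StringTie, HISAT2 and fastp, per the submitters' processing notes. Their versions and roles, the genome build and the annotation are not given in the sources used here, and no coordinates are printed. Poly(A) RNA was sequenced as stranded paired reads, per the labels' protocols. Because TPM are shares of a library, a change in a few abundant transcripts moves all others, so libraries were also rescaled by median ratios and without mitochondrial transcripts.

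Genes averaging 1 TPM or more were tested with limma 3.58.1 in R 4.3.3 on log2(TPM + 1), with 1 mean per diet, variances that follow the mean (trend=TRUE) and Benjamini-Hochberg adjustment over 11339 genes. Calls needed an adjusted p below 0.05, 2-sided. The fit was tested on simulated data. Descriptions used Python 3.11.15, numpy 2.4.6, pandas 2.3.3 and scipy 1.17.1. All 40 symbols were in the reference table, which places 0 of them on the sex chromosomes.

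The members, the lists and the alternatives were chosen with earlier results of these data known. Genes were named by rule: the catalytic, ubiquitin-handling, activator and inhibitor members, the 2 with the smallest p per dose and in the F test, those with the highest and lowest mean or spread, and the 10 genes most like the subunit mean. Other members are named for their ranges or correlations after their values were seen, as are the genes named from the lists. The lists were proteasome partners, ubiquitin and segregase genes, heat shock, interferon response and cell type markers. The markers were of hepatocytes, B and plasma cells, endothelium, T and NK cells, erythrocytes and macrophages. Symbols missing from the table were left out, apart from SEM1 and UFD1, found as SHFM1 and UFD1L. No sequences are shown.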

Additional observations from a re-analysis of the deposited data

Results flagged for a closer look

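Within each diet, a set of levels was searched for a single library far from the others, by Dixon's criterion at the 95% level. The set included the levels of the named genes and the summed core and cap levels. Chance alone would mark about 1 in 20 independent groups of normally spread values, but the groups searched here share libraries. Of 56 groups 6 held such a library. Control replicate 3 accounted for 3 of them: PSMD14 at 70.88 TPM with the next control library at 45.02 TPM, PSME3 at 45.93 TPM with the next at 32.27 TPM, and the summed cap subunits at 1580.75 TPM with the next at 1119.55 TPM. PSMD14 was also far above the rest in replicate 2 at 9 g/kg, with 40.78 against 30.32 TPM. PSME1 reached 162.38 TPM in replicate 4 at 1.8 g/kg, where the next library had 104.27 TPM. PSMG4 stood at 12.08 TPM in control replicate 1, with the next control library at 8.86 TPM.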

How the results depend on the processing

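The counts of proteasome genes called, 0 of 40 in each of the 8 comparisons, were again 0 with a pseudocount of 0.1, no filter on low values, median-ratio rescaling, removal of mitochondrial transcripts, trend=FALSE, the W-linked transcript HINTW as a covariate, only the libraries of the contrast, and each of the 32 libraries left out (0 to 0). No gene of the table was called under any of these. With the replicate number as a block the count was also 0. Of 48 pairs of same-number libraries 18 had r over 0.1 (median 0.03, from −0.31 to 0.37). Pairs with unlike numbers were not measured, so whether the numbers pair the libraries was not settled. With the block 320, 661 and 338 genes had an unadjusted p below 0.05 (limma) at 1.8, 9 and 18 g/kg against control. Without the block these were 265, 552 and 277. With HINTW as a covariate 1 of the 40 proteasome genes reached that threshold at 9 g/kg, beside 540 genes of the table. Without mitochondrial transcripts 2 estimates at 18 g/kg turned sign, PSMB5 to 0.0276 and PSMB7 to 0.000703. With 1 library left out the log2 difference from control ranged from −0.126 to 0.079 for PSMD4 at 1.8 g/kg, from −0.1476 to 0.0137 for PSMB5 at 9 g/kg, and at 18 g/kg from −0.1289 to 0.0699 for PSMB5, −0.0994 to 0.0077 for PSMB7, −0.0108 to 0.1941 for PSMD4 and −0.0389 to 0.1687 for PSMD14. The cause was not tested. The median difference of the 40 genes ranged from −0.0865 to 0.0387 at 1.8 g/kg, −0.1297 to 0.0305 at 9 g/kg and −0.0096 to 0.1543 at 18 g/kg. Leaving out both farthest libraries together was chosen after seeing the data. Depth is unknown, so counting error could not be set apart from variation between libraries.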
